A study of Mus musculus with 9 samples.

Results

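Livers that had lost 2 HP1 proteins were compared with livers that had lost at most 1. The comparison set the 4 double-mutant livers of the series, 1 labelled HP1a-/-, HP1bliver-/- (HP1ab_KO below) and 3 labelled HP1a-/-, HP1gliver-/- (HP1ag_KO), against the 5 livers that keep HP1 beta and HP1 gamma, 3 WT and 2 labelled HP1a-/- (HP1a_KO). Members were chosen by genotype label, and genes entered when their mean over the 9 livers was at least 10, which kept 13845 of the 22701 genes in the deposited table. The gene just inside that limit was Eme1, with a mean of 10.01, and the gene just outside was Zfp57, with a mean of 9.998. All 9 mice were 5 weeks old on a C57BL/6, 129svPas background, and total liver RNA was prepared with a stranded kit and sequenced after removal of ribosomal RNA. HP1 alpha was missing by label in all 4 double mutants and in 2 of the 5 reference livers, while the 3 WT livers keep it. The comparison therefore mixes the loss of HP1 beta or HP1 gamma with that of HP1 alpha, and the references are also taken apart by HP1 alpha below. The labels mark the beta and gamma deletions as liver deletions, the Cre driver was not given in the sources used here, and HP1ab_KO rests on 1 liver. Livers of a group are numbered in accession order, as names only.

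Values are normalised read counts, that is, reads per gene divided by 1 size factor per library, and the libraries held 16266423 to 36161177 reads, with the shallowest in HP1a_KO. Albumin, the main secreted product of hepatocytes, took 5.89% to 9.34% of the reads of each library. The labels give neither sex nor litter. The Y-linked gene Ddx3y stood at 3036 to 4549 in all 9 livers, while Xist, which is expressed from the inactive X chromosome, did not exceed 14.6. On the 2 leading principal components, which held 25.0% and 22.8% of the variance, 1 WT liver (50.3 on the second), 1 HP1ag_KO liver (-44.8 on the second), 1 HP1a_KO liver (41.2 on the first) and another HP1ag_KO liver (-44.7 on the first) stood apart from the rest. These positions did not follow the number of HP1 proteins lost. The labels name no litter, day or batch, so p-values measure the spread between these 9 libraries. In the fit of 2 sets, differences between genotypes within a set count as part of that spread.

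HP1 proteins, encoded in the mouse by Cbx5 (HP1 alpha), Cbx1 (HP1 beta) and Cbx3 (HP1 gamma), bind histone H3 methylated at lysine 9 through their chromodomain and bring silencing partners to heterochromatin. The corepressor TRIM28 binds HP1 and is recruited to DNA by zinc finger proteins with a KRAB domain. The genes of these zinc finger proteins lie in clusters of related copies, and HP1 and H3 lysine 9 methylation are known to cover many of these clusters.

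The targeted transcripts were checked first. Cbx3 stood at 536, 639 and 641 in the WT livers, 572 and 609 in HP1a_KO, 542 in HP1ab_KO and 380.04, 326 and 343 in HP1ag_KO. The 3 HP1ag_KO livers lay below the 6 others, and HP1ab_KO lay within the reference range, so the 2 sets as a whole overlapped (log2 difference -0.62 ± 0.14 SE; exact two-sided permutation test over the 126 ways to choose 4 of 9 livers, p = 0.0159, where the smallest possible is 0.00794). For Cbx1 the counts were 1082, 868 and 803 in the WT livers, 457 and 771 in HP1a_KO, 217 in HP1ab_KO and 689.9, 856 and 713 in HP1ag_KO. HP1ab_KO was the lowest of the 9 (exact permutation p = 0.365 for the 2 sets). Cbx5 stood at 1542, 1167 and 997 in the WT livers, 576 and 501 in HP1a_KO, 663 in HP1ab_KO and 663, 813 and 753 in HP1ag_KO, so all 6 livers labelled HP1a-/- lay below all 3 WT livers, on both sides of the comparison (exact permutation p = 0.437). Transcripts of each deleted gene were still counted, and the deleted exons were not given in the sources used here, and these counts thus check the labels only in part.

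In the test across all genes, 1 of 13845 rose in the double mutants and 0 fell, a share of 0.00722% called (limma on log2(value + 1), Benjamini-Hochberg adjusted p under 0.05). At an unadjusted p under 0.05 the limma fit held 991 genes (7.16%). The count model edgeR on the recovered whole reads also called 1 gene, with 1021 (7.37%) at an unadjusted p under 0.05, and DESeq2 called 68 (0.491%), 38 higher (0.274%) and 30 lower (0.217%). The gene called by limma was RP24-194K24.6, a gene model that GENCODE M21 names Gtpbp4-ps1, annotated as an unprocessed pseudogene, a copy of part of Gtpbp4, which encodes a nucleolar GTPase of large ribosomal subunit assembly. It stood at 16.01, 22.9 and 22.5 in the WT livers, 29.4 and 21.5 in HP1a_KO, 111 in HP1ab_KO and 72.00, 102 and 117 in HP1ag_KO. The 4 double mutants lay far above the 5 others with no overlap, at 101 ± 20.1 (SD, n = 4) against 22.4 ± 4.75 (SD, n = 5). The log2 difference was 2.12 ± 0.22 SE, or 4.34-fold (limma adjusted p = 0.0235, edgeR adjusted p = 0.0174, DESeq2 adjusted p = 7.04e-14; higher in 4 of 4 double mutants). The limma call was lost when any 1 of 7 livers was left out (each WT liver, the second HP1a_KO liver, HP1ab_KO, or HP1ag_KO liver 2 or 3), with adjusted p between 0.0513 and 0.204, while the log2 difference stayed between 2.01 and 2.27 in all 9 such fits. It was also lost with 4 groups in place of 2 (limma adjusted p = 0.106 weighted by libraries and 0.261 weighted equally) and with a mean of at least 50 as filter (0.0559). With runs of neighbouring animal numbers as a term the limma adjusted p was 0.504. In that fit only WT livers 2 and 3 and the 3 HP1ag_KO livers inform the difference, since every other liver stands in a run that holds 1 side only. It is thus a narrower comparison than the main one.

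The transcript of this pseudogene is printed because it was the called feature and because reads from it can be confused with copies elsewhere. It spans chr7:14724656-14724904 on the minus strand (GRCm38, GENCODE M21), as a single exon. Over the aligned region it is 90.3% identical to a Gtpbp4 transcript, and the capitals mark the longest run, 51 bases, that is identical between them.
Gtpbp4-ps1: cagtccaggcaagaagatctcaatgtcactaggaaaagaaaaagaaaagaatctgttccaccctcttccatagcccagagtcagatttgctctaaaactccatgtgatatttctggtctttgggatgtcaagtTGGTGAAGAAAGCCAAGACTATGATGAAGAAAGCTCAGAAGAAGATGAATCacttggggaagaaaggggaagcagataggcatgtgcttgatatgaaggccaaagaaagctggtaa
Of the 50-base words in it, 83.00% also occur in transcripts of other annotated genes, chiefly the pseudogenes Gtpbp4-ps2, Gtpbp4-ps4 and Gtpbp4-ps5, so its level is uncertain where the counting could split reads among copies. Gtpbp4-ps4 was at 0 in 8 livers and at 0.91 in 1. The parent gene itself stood at 1404, 1129 and 1388 in the WT livers, 958 and 1503 in HP1a_KO, 939.7 in HP1ab_KO and 1261, 953 and 1151 in HP1ag_KO. The 2 sets overlapped for Gtpbp4, and its log2 difference of -0.24 went the other way from that of the pseudogene.

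Because a single call says little about the other genes, the spread was also described without a model. In 177 genes (1.28% of those tested) all 4 double mutants lay above all 5 other livers, and in 169 (1.22%) all 4 lay below. With libraries scaled to equal totals these counts were 263 and 62, a share of higher genes of 80.9% in place of 51.2%. That scaling also moved the median log2 difference of all genes from -0.01 to 0.05. Differences were wider among the higher genes: 35 of the 177 exceeded a 2-fold difference, against 5 of the 169 lower ones, and the median size of the log2 difference was 0.57 against 0.25. Of the 177, 23 were among the 317 tested genes whose symbol starts with Zfp and a digit (7.26% of these, beside 1.28% of all genes). Of the 169, 0 were. HP1ab_KO was the double mutant nearest to the references in 70 of the 177 and in 76 of the 169, and without it the counts were 547 and 515. The number wholly above was also over 1.5 times as large without WT liver 2 or 3, HP1a_KO liver 1, or HP1ag_KO liver 1 or 2 (274 to 347), and the number wholly below ran from 241 to 515 over all 9 such omissions. Fewer livers make a separation easier to reach. DESeq2 called 32 of the 177 and 28 of the 169.

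**Figure D1:**
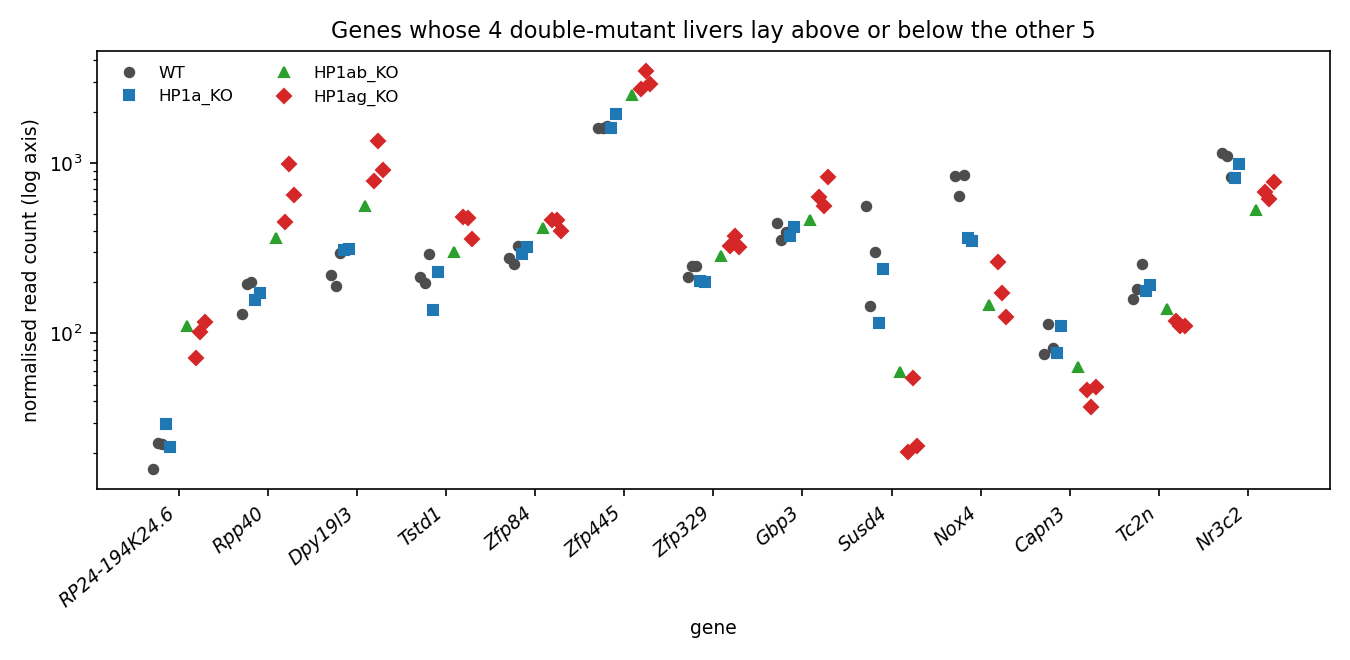
Normalised read count (log axis) of 13 named genes in each of the 9 livers, with 1 point per liver, the 5 reference livers to the left and the 4 double mutants to the right of each gene. For each gene the red and green points (double mutants) lie wholly above or wholly below the grey and blue points (WT and HP1a_KO), as for RP24-194K24.6 with 72.0 to 117 against 16.0 to 29.4.

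Zinc finger genes as a group were higher in the double mutants. Of 352 genes whose symbol starts with Zfp and a digit 317 passed the filter, and of these 241 (76.0%) had a positive log2 difference, against 47.3% of all genes, and the median was 0.17, against -0.01. All 4 double mutants lay above all 5 others for 23 of them (7.26%, beside 1.28% of all genes) and below for 0 (beside 1.22%). The 23 include Zfp872, which with a reference mean of 7.88 passed the filter only through the double mutants and was bound to count as higher. None of the 317 was called by limma, and DESeq2 called 5 of them, all higher, beside 38 of all 13845 genes called higher (0.274%). Their mean level, on a log2 scale centred on each gene's mean, was 0.05 to 0.13 in the double mutants and -0.12 to -0.03 in the other 5. The sets did not overlap on this measure, with the first HP1ag_KO liver lowest among the double mutants and the second WT liver highest among the references. Their summed counts did not overlap either, at 101822 to 106647 in the double mutants and 94364 to 100909.8 in the other 5. Leaving out any 1 liver kept the median between 0.13 and 0.17 and left 25 to 43 genes wholly above and 0 to 3 wholly below, with the count over 1.5 times 23 without WT liver 2 (37), WT liver 3 (35) and HP1ag_KO liver 1 (43).

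The same list was set beside each genotype. With HP1ab_KO against WT, 219 of 317 zinc finger genes were higher and the median was 0.15. With HP1ag_KO against WT, 230 were higher and the median was 0.14. With HP1a_KO against WT, 140 were higher and the median was -0.05. These 3 comparisons share the WT livers. Against HP1a_KO alone, where the loss of HP1 alpha is common to both sides, the 4 double mutants were higher in 228 of 317, with a median of 0.19.

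**Figure D2:**
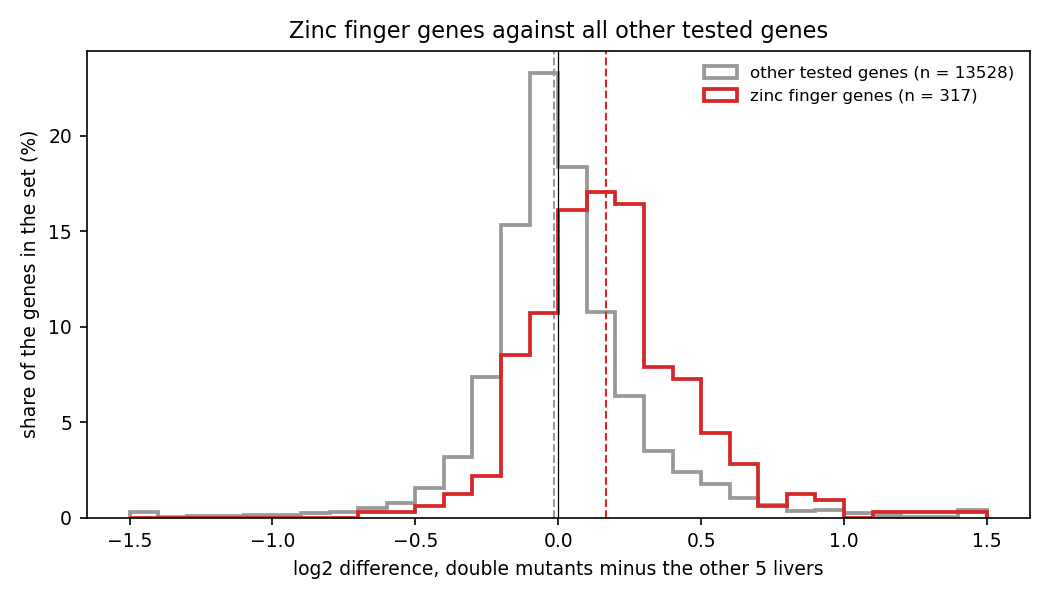
Share of genes (in %) by log2 difference between the double mutants and the other 5 livers, for 317 zinc finger genes (red) and all other tested genes (grey), in steps of 0.1, with values past 1.5 in either direction placed in the outermost step and dashed lines at the medians. The red curve is shifted to the right of the grey one, with medians of 0.17 and -0.01.

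The size of the difference varied among zinc finger genes. Zfp445, a KRAB zinc finger protein that binds imprinting control regions, stood at 1611, 1610.4 and 1643 in the WT livers, 1604 and 1933 in HP1a_KO, 2489 in HP1ab_KO and 2725, 3474 and 2884 in HP1ag_KO. Its 4 double mutants lay above the others by a margin wider than the spread of the references (log2 difference 0.78 ± 0.10 SE; limma adjusted p = 0.0979, DESeq2 adjusted p = 1.43e-07), and with libraries scaled to equal totals limma called it as well. Its neighbours on chromosome 9, Zkscan7 (log2 difference 0.70) and Zfp105, also showed no overlap, Zkscan7 at 330.01 to 544 in the double mutants and 222 to 307 in the other 5. Zfp84 on chromosome 7 had counts of 278, 254 and 324 in the WT livers, 292 and 320.02 in HP1a_KO, 414 in HP1ab_KO and 463, 461 and 398 in HP1ag_KO, again without overlap (log2 difference 0.57 ± 0.10 SE; limma adjusted p = 0.28). Zfp329, at 285 to 371 in the double mutants and 200.4 to 250.02 in the other 5, had a log2 difference of 0.55 ± 0.12 SE (limma adjusted p = 0.371). Zfp433 stood at 245 to 312 in the double mutants and 149 to 181 in the other 5 (log2 difference 0.82 ± 0.11 SE; limma adjusted p = 0.0979), but 84.3% of its 50-base words also occur in other genes, so reads may be split among copies.

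Zinc finger genes with other zinc finger genes nearby had a higher median than isolated ones. This split, like the chromosome windows that follow, was chosen after the values were seen. Counting a gene when either its deposited or its GENCODE M21 symbol names a zinc finger gene gave 343 genes with a position, with a median log2 difference of 0.18 and 31 wholly above (9.04%). The 111 with no other zinc finger gene within 500 kb had a median of 0.09, with 3 wholly above (2.70%, beside 1.28% of all genes). For the 65 with 1 or 2 such neighbours the median was 0.19, with 9 wholly above (13.8%, the highest share of the 3 classes). The 167 with 3 or more had a median of 0.22, with 19 wholly above (11.4%). Among these 19 are Gm13248, 2610305D13Rik and Zfp872, with reference means of 9.76, 6.18 and 7.88. They passed the filter only through the double mutants and were bound to count as higher. Neighbouring genes share sequence and reads, so they are not independent of each other.

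Along the genome, 2012 windows of 1 Mb held a tested gene. In 6 windows at least 3 genes lay wholly above, and each of the 6 held zinc finger genes. In 1 window at least 3 lay wholly below, on chromosome 4 from 41 to 42 Mb, with Ube2r2, Dcaf12 and Ubap1, which take part in ubiquitin handling or protein sorting. The window on chromosome 17 from 21 to 22 Mb held 15 tested genes, 14 of them zinc finger genes, and all 15 had positive log2 differences (median 0.36). There Zfp160, Zfp677, Zfp54, Zfp53, Zfp820 and 2210404O09Rik (Zfp995 in GENCODE M21) showed no overlap. Zfp820, for one, stood at 85.4, 91.4 and 77.7 in the WT livers, 86.2 and 72.3 in HP1a_KO, 134 in HP1ab_KO and 102, 104 and 155 in HP1ag_KO, and Zfp54 at 84.1 to 104 in the double mutants and 64.5 to 80.9 in the other 5. Neither Zfp760 (122 to 265 in the double mutants and 77.1 to 254 in the other 5) nor Zfp948 (138 to 222 in the double mutants and 134 to 214 in the other 5), which lie among them, separated the sets. On chromosome 10 from 82 to 83 Mb, Zfp873, AU041133, Zfp938 and Gm4924 lay wholly above, with Zfp873 at 121 to 187 in the double mutants and 57.8 to 115 in the other 5. In the same window the thioredoxin reductase gene Txnrd1 lay wholly below, at 2789 to 3085 in the double mutants and 3453 to 3917 in the other 5. On chromosome 13 from 62 to 63 Mb, Zfp808, Zfp934 and Gm3604 lay wholly above, with 28.2% and 30.9% of the 50-base words of the first pair shared with other genes. The remaining windows were on distal chromosome 4, described next, on chromosome 9 from 122 to 123 Mb with Zfp445, and on chromosome 4 from 62 to 63 Mb with Mup21, Zfp37 and Slc31a2.

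Distal chromosome 4 held a cluster with wide zinc finger differences. Between 145585166 and 147848366 (GRCm38), 14 genes were tested, 13 had positive log2 differences with a median of 1.23, 8 showed no overlap, and limma called none of them. DESeq2 called 8, which are those without overlap except Gm13248 (Zfp993), plus 4933438K21Rik. The references averaged 9.76 for Gm13248, 5.52 for 4933438K21Rik and 6.18 for 2610305D13Rik (Zfp979), below the limit of 10. These genes passed the filter only through the double mutants, so they were bound to count as higher. Gm13251 (Zfp992), the most abundant of the 8 without overlap, stood at 38.2, 101 and 88.96 in the WT livers, 134 and 104 in HP1a_KO, 236 in HP1ab_KO and 252, 637 and 393 in HP1ag_KO. All 4 double mutants were above all 5 others (log2 difference 2.003 ± 0.38 SE; limma adjusted p = 0.28, DESeq2 adjusted p = 5.28e-05). Gm13152 (Zfp982) stood at 63.1, 139.99 and 113 in the WT livers, 152 and 80.01 in HP1a_KO, 190.2 in HP1ab_KO and 283, 398 and 323 in HP1ag_KO. HP1ab_KO was the lowest double mutant there, close to the highest HP1a_KO liver. Gm13157 (Zfp984) had 153 to 172 in the double mutants and 58.7 to 97.1 in the other 5, and the pseudogene Znf41-ps had 48.7 to 67.3 in the double mutants and 14.2 to 36.7 in the other 5 (log2 difference 1.40 ± 0.27 SE). 2610305D13Rik (Zfp979) had the largest log2 difference of the cluster (2.35 ± 0.53 SE), and both it and 4933438K21Rik were highest in HP1ag_KO livers 2 and 3, at 74.02 and 59.6 for the first of them, beside 11.2 in HP1ab_KO and at most 9.17 in the references. The last zinc finger gene of the cluster, Zfp933, overlapped, at 279 to 334 in the double mutants and 224 to 386 in the other 5. Away from this cluster, on chromosome 9, Zfp872 had a difference of like size at lower counts, 21.3 to 45.4 in the double mutants and 3.56 to 13.1 in the other 5, without overlap (log2 difference 2.06 ± 0.38 SE; limma adjusted p = 0.28, DESeq2 adjusted p = 0.000677). Zfp872 was chosen after its values were seen, and with a reference mean of 7.88 it too passed the filter only through the double mutants. The cluster consists of near copies: 89.6% of the 50-base words of Znf41-ps, 82.2% of Gm13139 (Zfp991), 54.5% of Gm13157, 42.98% of Gm13251, 27.1% of 2610305D13Rik and 11.9% of Gm13152 occur in other genes. The levels of single members are therefore uncertain where the counting could split or drop such reads, and Gm26624 overlaps Gm13139 in position, as Gm20707 does Gm13157.

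The 150 bases upstream of 2 of these genes are printed to show how alike these 2 are outside the coding part (RefSeq promoter sequences, GRCm38.p6, 5′ to 3′ along the gene). Other members of the cluster were not compared in this way. Zfp982 is on the plus strand, with this stretch at chr4:147492267-147492416, and Zfp984 on the minus strand, at chr4:147809789-147809938. The capitals mark the longest run shared by both, 20 bases.
Zfp982: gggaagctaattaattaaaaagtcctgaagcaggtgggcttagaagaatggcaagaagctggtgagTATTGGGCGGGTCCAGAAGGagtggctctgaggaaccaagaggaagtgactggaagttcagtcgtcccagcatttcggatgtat
Zfp984: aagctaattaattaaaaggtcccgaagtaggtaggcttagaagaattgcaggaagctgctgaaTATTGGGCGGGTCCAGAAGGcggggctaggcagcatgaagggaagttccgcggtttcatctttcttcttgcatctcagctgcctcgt
Aligned, the stretches were 72.0% identical over 157 alignment columns. Searched on both strands, the 20-base run TATTGGGCGGGTCCAGAAGG was found in the same stretch of 8 of 32851 promoters (0.0244%), those of Gm13212, Rex2, Zfp600, Zfp980, Zfp982, Zfp984, Zfp985 and Zfp988. Of these, 7 were in the deposited table and 3 passed the filter: Gm13152 (Zfp982) and Gm13157 (Zfp984), which showed no overlap, and Gm13212, which overlapped at 19.98 to 26.5 in the double mutants and 6.23 to 25.7 in the other 5. The 4 others did not exceed 3.36 in any liver. A shared run is a description of these sequences and says nothing about what binds there.

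**Figure D3:**
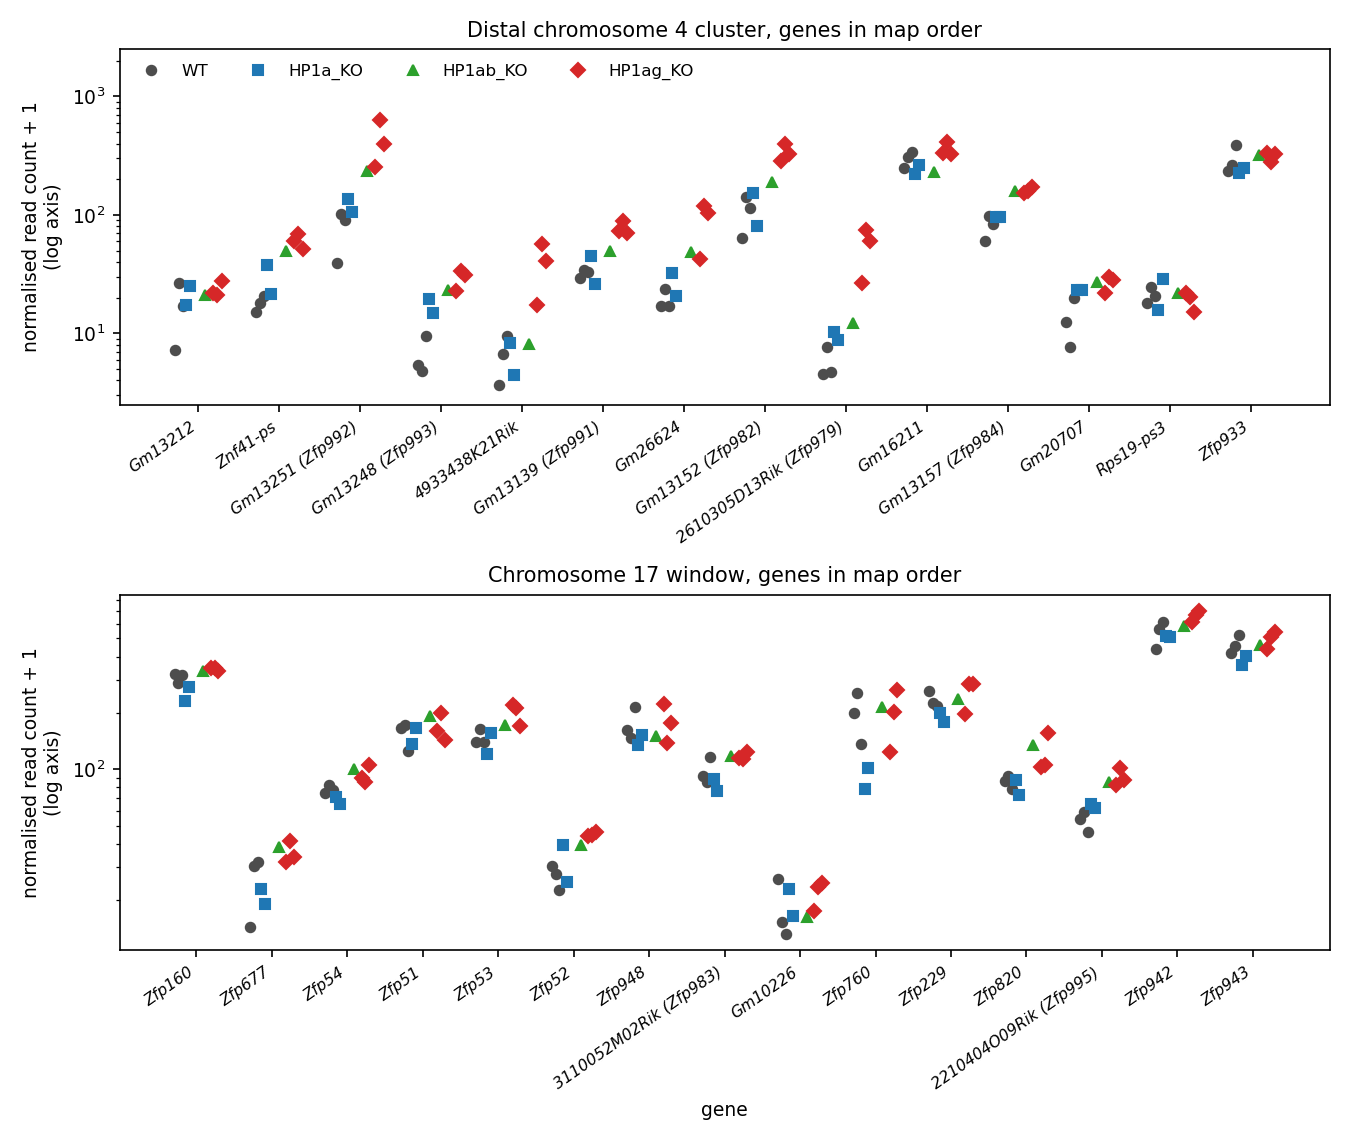
Normalised read count plus 1 (log axis) for the tested genes of the distal chromosome 4 cluster (upper) and of the chromosome 17 window (lower) in map order, with 1 point per liver and GENCODE M21 symbols in brackets. In the upper part the HP1ag_KO livers (red) reach 637 for Gm13251, while in the lower part the sets lie closer, with 134 in HP1ab_KO and 102 to 155 in HP1ag_KO against 72.3 to 91.4 for Zfp820.

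Other higher genes without overlap lie outside the zinc finger list. Dpy19l3, a C-mannosyltransferase that glycosylates tryptophan in secreted and membrane proteins, stood at 221, 189.5 and 297 in the WT livers, 308 and 313 in HP1a_KO, 555 in HP1ab_KO and 778, 1343 and 907 in HP1ag_KO. The lowest double mutant, HP1ab_KO, was well above the highest reference, at a mean of 896 ± 331 (SD, n = 4) against 266 ± 56.5 (SD, n = 5). The log2 difference was 1.70 ± 0.25 SE (limma adjusted p = 0.122, DESeq2 adjusted p = 4.39e-08). Its relatives Dpy19l1 and Dpy19l4, with log2 differences of -0.18 and 0.10, overlapped. Rpp40, a protein subunit of RNase P, which trims the leader of transfer RNA precursors, stood at 131, 194 and 201 in the WT livers, 156 and 173 in HP1a_KO, 364 in HP1ab_KO and 448, 985 and 651 in HP1ag_KO. Again no double mutant fell within the reference range (log2 difference 1.74 ± 0.26 SE; limma adjusted p = 0.148, DESeq2 adjusted p = 1.43e-07). Of the 10 tested RNase P and MRP subunits, 5 were higher and 5 lower, and Rpp40 was the 1 without overlap (10%, beside 1.28% of all genes wholly above).

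Mup21, of the major urinary protein family that carries pheromones, stood at 2201, 2006 and 372 in the WT livers, 1398 and 682 in HP1a_KO, 6918 in HP1ab_KO and 2512, 25894 and 18132 in HP1ag_KO. The double mutants were all above the references, but they spanned a wide range (log2 difference 3.12 ± 0.72 SE; limma adjusted p = 0.412), and 19.3% of its 50-base words occur in other Mup genes. Neither Mup20, at 2678 to 47767 in the double mutants and 27967 to 97246 in the other 5, nor Mup3, at 77023 to 238738 in the double mutants and 120859 to 192701 in the other 5, separated the sets. Tstd1, a rhodanese-domain protein, stood at 301 to 480.3 in the double mutants and 138 to 294 in the other 5. Adamts6, a secreted metalloprotease, stood at 90.3 to 169 in the double mutants and 39.1 to 86.2 in the other 5. Smaller differences without overlap were found for Agxt, which detoxifies glyoxylate in peroxisomes, at 9248 to 11577 in the double mutants and 5495 to 8795 in the other 5 (log2 difference 0.55), and for Cdip1, a cell death gene, at 2897 to 3201 in the double mutants and 1937 to 2619 in the other 5 (log2 difference 0.44). Gm5784, a gene model on chromosome 12, stood at 39.2 to 149 in the double mutants and 6.23 to 23.8 in the other 5, with 21.8% of its 50-base words shared with other genes. For each of these 6 genes limma gave an adjusted p of 0.28 to 0.473, and DESeq2 called each.

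Genes wholly below with a difference of more than 2-fold that DESeq2 called included Susd4 and Nox4. Susd4, a membrane regulator of complement, stood at 559, 146 and 299 in the WT livers, 116 and 238 in HP1a_KO, 59.1 in HP1ab_KO and 20.05, 54.96 and 21.8 in HP1ag_KO. The references themselves ranged widely, and the highest double mutant was below the lowest of them (log2 difference -2.71 ± 0.49 SE; limma adjusted p = 0.28, DESeq2 adjusted p = 8.37e-06). Nox4, an NADPH oxidase that makes hydrogen peroxide, stood at 833, 639.96 and 848 in the WT livers, 363 and 350.1 in HP1a_KO, 146 in HP1ab_KO and 262, 172 and 125 in HP1ag_KO. It took 3 levels, highest in WT, intermediate in HP1a_KO and lowest in the double mutants (log2 difference -1.73 ± 0.32 SE against the 5; limma adjusted p = 0.28, DESeq2 adjusted p = 4.64e-05).

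Other lower genes without overlap had differences of less than 2-fold, and DESeq2 called each while limma did not. They held 2 enzymes of small-molecule metabolism: Ugt2b35, a UDP-glucuronosyltransferase, at 2891 to 3706 in the double mutants and 4493 to 7463 in the other 5, and Amd1, which feeds polyamine synthesis, at 791 to 897 in the double mutants and 1026 to 1391 in the other 5. For Amd1, 78.1% of the 50-base words occur in other genes, chiefly Amd2. Regulators of transcription and RNA were among them too: Nr3c2, the mineralocorticoid receptor, at 529 to 772 in the double mutants and 820.1 to 1136 in the other 5, Cdyl2, a chromodomain protein, at 76.7 to 95.6 in the double mutants and 116 to 165 in the other 5, and Celf2, an RNA-binding regulator of splicing, at 186 to 282 in the double mutants and 329.5 to 422 in the other 5. Colec12, a scavenger receptor of the collectin family, stood at 1016 to 1256 in the double mutants and 1317 to 1853 in the other 5. Log2 differences of -0.91 for Capn3, a calcium-dependent protease, -0.68 for Tc2n, -0.64 for Nxpe2, -0.61 for Lrit1, -0.48 for Rasal2, which switches off Ras, and -0.47 for Ttbk2, a kinase needed for cilia, completed this set, and 29.6% of the 50-base words of Ttbk2 are shared. The gene model D16Ertd472e was at 145 to 191 in the double mutants and 218 to 317 in the other 5. The models 1190002N15Rik (-0.45) and E430025E21Rik (-0.28) lay wholly below without a call by either tool.

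Genes of MHC class I presentation, which show peptides from inside the cell to T cells, stood slightly higher. Of 27 tested, 23 had positive log2 differences with a median of 0.12 (all genes -0.01), 3 lay wholly above (11.1%, beside 1.28% of all genes), and limma called none. Their mean centred level was 0.06 to 0.09 in the double mutants and -0.10 to 0.01 in the other 5, without overlap. This narrow separation rests on 1 member, H2-Q1, and is not a trait of the list as a whole. The summed counts of the list, which its most abundant genes dominate, overlapped at 173172 to 210925 in the double mutants and 182043 to 200240.4 in the other 5. The class Ib gene H2-Q1 stood at 98.7, 221 and 183 in the WT livers, 167 and 219 in HP1a_KO, 312 in HP1ab_KO and 557, 554 and 315 in HP1ag_KO. It was the widest of the list (log2 difference 1.28 ± 0.27 SE; limma adjusted p = 0.371, DESeq2 adjusted p = 0.00182), and 14.96% of its 50-base words are shared with other H2 genes. Erap1, which trims peptides for loading, was at 4468 to 4945 in the double mutants and 4116 to 4387 in the other 5, a small difference without overlap, and H2-T23 at 6609.9 to 8338 in the double mutants and 5956 to 6688 in the other 5, with overlap. Of 53 interferon-stimulated genes 49 had positive log2 differences, with a median of 0.27 and 3 wholly above (5.66%, beside 1.28% of all genes). Their mean level overlapped, at -0.11 to 0.43 in the double mutants and -0.41 to 0.26 in the other 5. Gbp3, an interferon-induced GTPase, stood at 462 to 829.9 in the double mutants and 351 to 446 in the other 5, and Trim30a at 551 to 652 in the double mutants and 347 to 514 in the other 5. Among markers of immune cells, 12 of 17 Kupffer cell markers had positive log2 differences with a median of 0.11, and their summed counts were 24349 to 36586 in the double mutants and 23512 to 38819 in the other 5. For lymphocyte markers the figures were 8 of 13, 0.09, and summed counts of 439 to 771 in the double mutants and 323 to 630.2 in the other 5. Neutrophil and granulocyte markers went the other way, with 2 of 6, -0.09, and summed counts of 116 to 358 in the double mutants and 155 to 686 in the other 5. Of these 6 markers 1 lay wholly below (16.7%, beside 1.22% of all genes), and in so short a list 1 gene says little. The medians depended on the reference. Against WT they were 0.32, 0.16 and 0.78 for Kupffer cell, lymphocyte and neutrophil markers, and against HP1a_KO -0.24, -0.08 and -1.15. No marker of these lists was at 0 in all livers, and the part of such cells in these values was not tested. In whole liver, fewer cells of a type and less RNA per cell cannot be told apart.

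**Figure D4:**
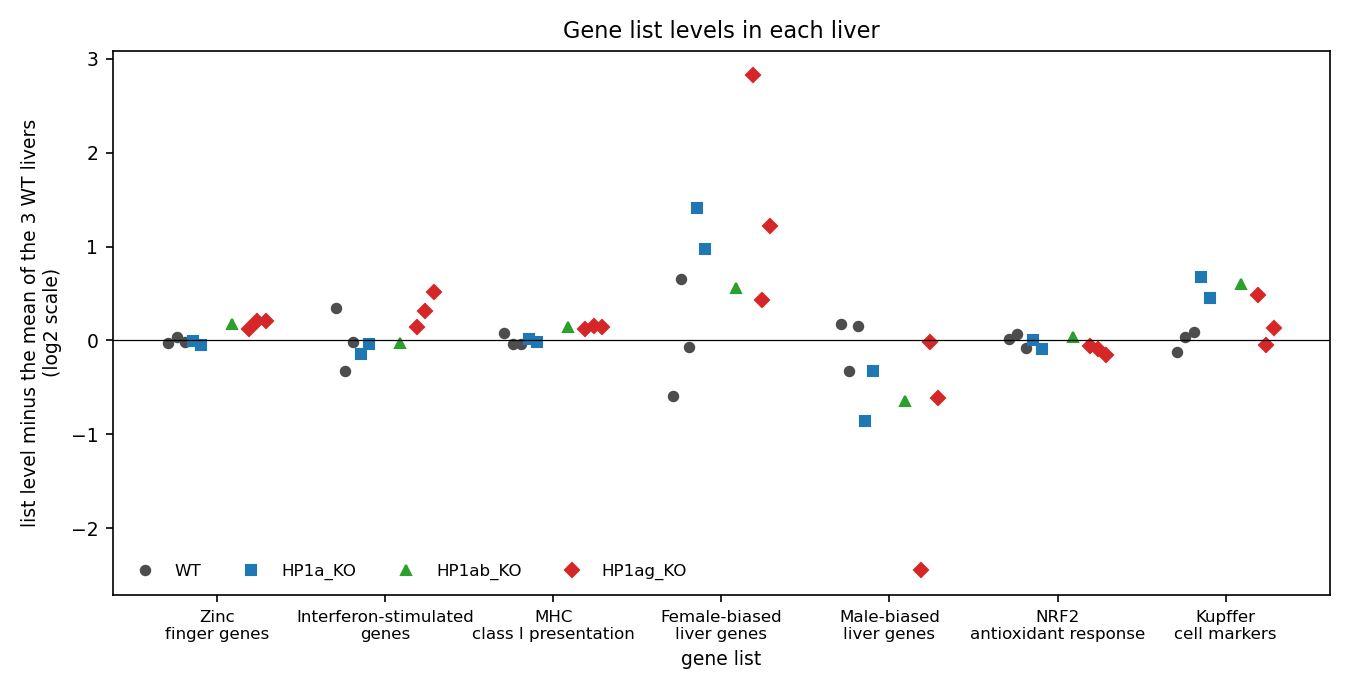
Mean log2 level of 7 gene lists in each liver, as the difference from the mean of the 3 WT livers, with 1 point per liver. The zinc finger and MHC class I levels separate the 4 double mutants from the other 5, the MHC class I level only through its member H2-Q1. The sex-biased, interferon, NRF2 and Kupffer lists overlap, and 1 HP1ag_KO liver lies far from the rest on both sex-biased lists.

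Sex-biased liver genes, which in the mouse follow the pattern of growth hormone release, lay towards the female side in the double mutants, with wide overlap. Of 42 tested male-biased genes 38 had negative log2 differences, with a median of -0.60, and of 34 female-biased genes 26 had positive ones, with a median of 0.62. Susd4 (below) and Mup21 (above) were the 2 of the male-biased list without overlap, and 0 of the female-biased list. Each is 2.38% of the male-biased list, beside 1.22% of all genes wholly below and 1.28% wholly above. The mean level of the male-biased list was -1.90 to 0.53 in the double mutants and -0.32 to 0.72 in the other 5. That of the female-biased list was -0.39 to 1.997 in the double mutants and -1.41 to 0.59 in the other 5. The first HP1ag_KO liver held the extreme in each, and without it the medians were -0.17 and 0.23. Against WT the medians were -0.82 and 0.995, and against HP1a_KO -0.36 and 0.07. How far Susd4 and Mup21 follow this axis was not tested.

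In the NRF2 antioxidant list, 24 of 38 genes had negative log2 differences, with a median of -0.10. Txnrd1 stood at 3755, 3515 and 3917 in the WT livers, 3453 and 3799.8 in HP1a_KO, 3035 in HP1ab_KO and 2789, 2932 and 3085 in HP1ag_KO, and each double mutant was below each reference (log2 difference -0.32 ± 0.07 SE; limma adjusted p = 0.371, DESeq2 adjusted p = 0.00192). Gclm, the modifier subunit of the enzyme that starts glutathione synthesis, lay wholly below as well, at 4443 to 5875 in the double mutants and 5924 to 7308 in the other 5. Of the 38, 2 lay wholly below (5.26%) and 1 wholly above (2.63%), beside 1.22% and 1.28% of all genes. Of 20 pericentral hepatocyte genes 17 had negative log2 differences (median -0.22). So did 12 of 14 carboxylesterase genes (median -0.20) and 27 of 34 genes of the endoplasmic reticulum and integrated stress response (median -0.14). These 3 lists held 0 genes without overlap, beside 2.5% of all genes, and at their length a count of 0 says little. The medians of these 3 lists depended on the reference: against WT they were -0.31, -0.36 and -0.03 in that order, and against HP1a_KO -0.0022, 0.0083 and -0.25. Cell cycle genes (28 of 47 higher, median 0.05), p53 targets (14 of 23, 0.03), ribosomal protein genes (32 of 81, -0.01) and histone genes (30 of 57, 0.02) lay near the median of all genes. They had 0 members wholly above or below, beside 2.5% of all genes. Among the 39 HP1 and heterochromatin genes, 21 had positive log2 differences, the median was 0.01, and none was without overlap. Among the 22 imprinted genes tested, Gnas, a G protein subunit, was the 1 without overlap (4.55%, beside 1.22% of all genes wholly below). It stood at 6192 to 7289 in the double mutants and 7378 to 7927 in the other 5. Hepatocyte markers had 4 of 12 positive log2 differences and a median of -0.05, with summed counts of 3948659 to 4070603 in the double mutants and 3337969 to 4370721 in the other 5. Of these 12, Apob, the apolipoprotein of secreted lipoproteins, lay wholly below (8.33%, beside 1.22% of all genes). Sinusoidal endothelial markers (12 of 18, 0.04), stellate cell markers (16 of 26, 0.04) and cholangiocyte markers (8 of 11, 0.11) had no member without overlap, and no marker of these lists was at 0 in every liver.

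**Figure D5:**
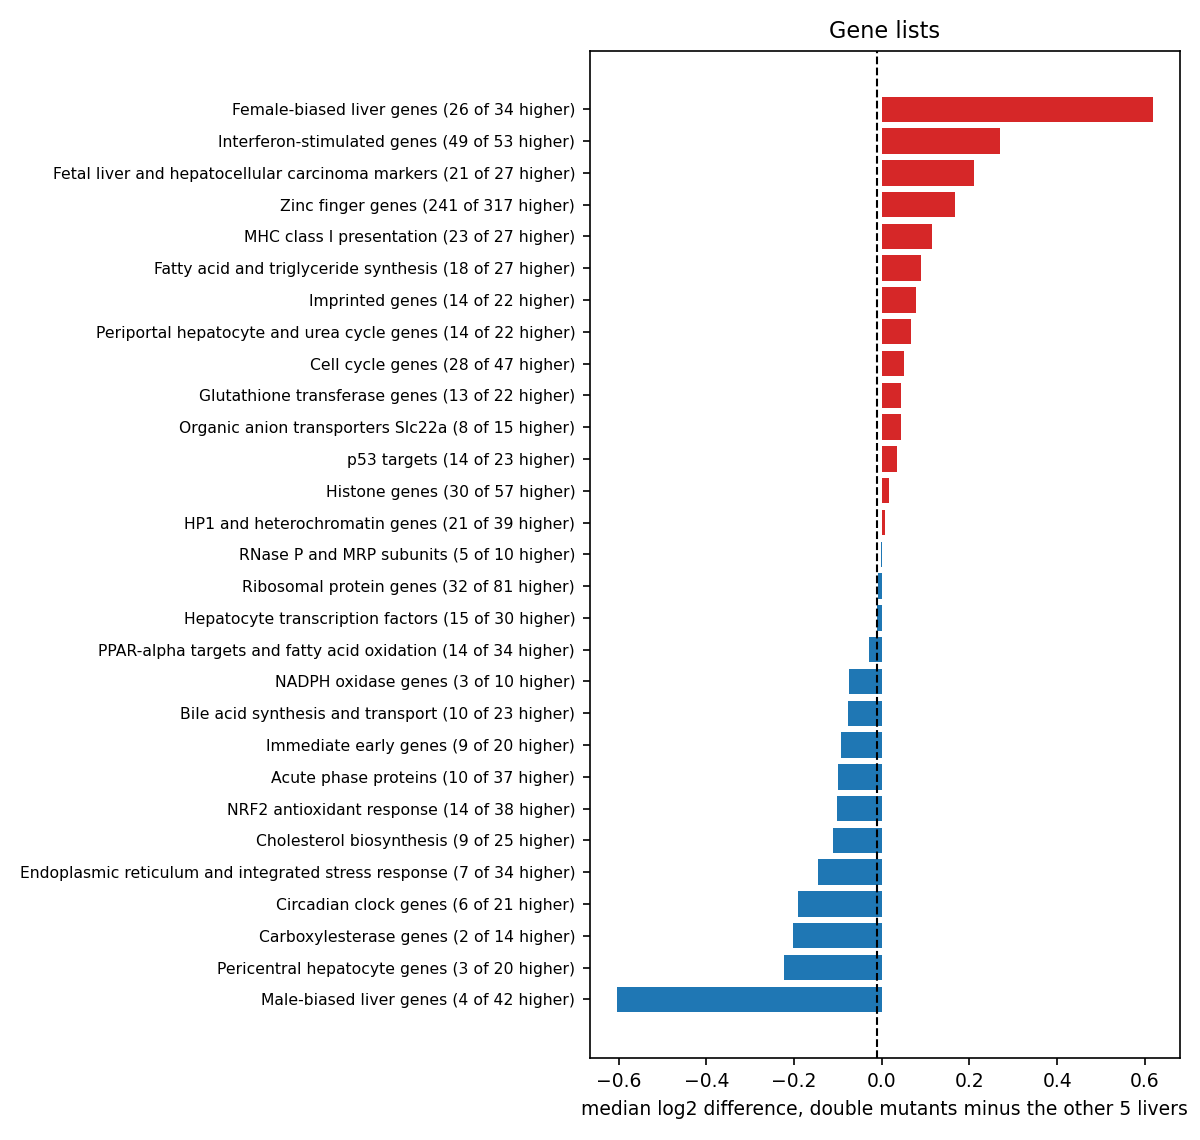
Median log2 difference between the double mutants and the other 5 livers for each gene list with at least 10 tested genes, as bars from 0, with the count of genes above 0 in brackets and a dashed line at the median of all tested genes. The longest bars are those of the sex-biased lists (0.62 and -0.60), and the zinc finger list, with 317 genes, reaches 0.17.

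Splitting the references by HP1 alpha gave 2 further comparisons, which share the 4 double mutants. Against WT, limma called 2 genes (0.0144%): RP24-194K24.6 rose (log2 difference 2.24 ± 0.24 SE) and Nox4 fell (-2.17 ± 0.23 SE), both at a limma adjusted p of 0.0419. No gene was called by edgeR there (852 at an unadjusted p under 0.05; the smallest adjusted p was 0.0548), and DESeq2 called 64 (0.462%), 30 higher (0.217%) and 34 lower (0.246%). Both limma calls ended when any 1 liver other than the first HP1ag_KO liver was left out. Nox4 was also intermediate in HP1a_KO, where its log2 difference to the double mutants was -1.07 ± 0.26 SE (limma adjusted p = 0.337). Nipal1, a magnesium transporter, shows how the references differ, at 121, 164 and 113 in the WT livers, 1330.2 and 409 in HP1a_KO, 451 in HP1ab_KO and 854, 435 and 545 in HP1ag_KO: the double mutants were above WT and within the range of HP1a_KO. Dct, an enzyme of melanin synthesis, was at 6.62 to 40.1 in the double mutants and 24.1 to 107 in the other 5, the lower of these references being the HP1a_KO livers, and Ces4a, a carboxylesterase, at 29.2 to 145 in the double mutants and 128 to 365 in the other 5. Against HP1a_KO, limma called 0 genes (0%; 1705 at an unadjusted p under 0.05), edgeR 0 (1634) and DESeq2 73 (0.527%; 44 higher, 0.318%, and 29 lower, 0.209%), and the smallest limma adjusted p was 0.337. Without the second HP1a_KO liver limma called 3 genes, Rpl34-ps1, Gm13331 and Gm5900. Genes that DESeq2 called there and not in the main comparison included Egr1, an immediate early factor, at 62.3, 156 and 88.02 in the WT livers, 159.6 and 669 in HP1a_KO, 35.96 in HP1ab_KO and 103, 58.3 and 131 in HP1ag_KO, and Mthfd2, a mitochondrial folate enzyme, at 48.9, 75.2 and 70.2 in the WT livers, 228 and 207 in HP1a_KO, 93.5 in HP1ab_KO and 30.1, 32.5 and 84.2 in HP1ag_KO. For Mthfd2 both HP1a_KO livers were far above the rest, and WT lay within the range of the double mutants. For Egr1 only the second HP1a_KO liver (669) was far above the rest. The first (159.6) lay close to WT liver 2 (156), which was itself above every double mutant. Apcs, the serum amyloid P component, and Pfkfb3, a regulator of glycolysis, had log2 differences to HP1a_KO of -1.53 and -1.45, while Gsta2, a glutathione transferase, and Akap5, a kinase anchor, had 1.90 and 1.76.

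Genes near the targeted loci were described separately. Within 5 Mb of Cbx1, 69 of 151 tested genes were higher in the double mutants (median -0.02, with Cnp wholly above and 1 gene wholly below). Within 5 Mb of Cbx3, 36 of 62 were higher (median 0.09, 2 wholly above, of them Gimap6 at 445 to 487 in the double mutants and 326 to 438 in the other 5). Within 5 Mb of Cbx5, 48 of 90 were higher (median 0.01, none without overlap). In these windows 1.32%, 3.23% and 0% of the genes showed no overlap, beside 2.5% of all genes in either direction.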

How the data were processed

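RNA was measured in 9 livers with 1 library each. The deposited signal is, from its values, read counts per gene that the authors divided by 1 size factor per library, and is not per gene length. The submitters' processing notes list the build mm10 and the tools TopHat2 2.0.10, Bowtie2 2.1.0, HTSeq 0.5.4p3, DESeq2 1.0.19 and CASAVA 1.8.2. Whether counting used strand is not given in the sources used here. Whole reads were recovered for 100% of the values within 0.1 of a read. One read was worth 0.799 to 1.83 in the deposited unit, so a count of 0 allows up to 2.40 to 5.50 (3 reads, counting error only).

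Genes with a mean of at least 10 were tested on log2(value + 1) with limma 3.58.1 (trend, 2 sets of libraries, 7 residual degrees of freedom), and with 3 sets for the comparisons against WT and HP1a_KO, at a Benjamini-Hochberg adjusted p under 0.05 over all 13845 genes. Log2 differences are on that scale and understate the change of low genes. edgeR 4.0.16 (quasi-likelihood) and DESeq2 1.42.0 were run on the recovered reads as alternatives. Beside the Cbx genes, up to 15 genes per direction were named: those called by limma, then by DESeq2, then by the smallest unadjusted limma p, taken by widest log2 difference among genes without overlap whose higher set averaged at least 50. Up to 3 unnamed gene models per direction and up to 5 genes per direction against WT and against HP1a_KO followed the same order. From each gene list or Cbx window up to 3 were taken by the smallest unadjusted limma p alone, with or without overlap. Zinc finger neighbours, chromosome windows and their members were chosen after their values were seen. The members, gene lists and tests were chosen with earlier results of these data known. The limma script was tested on simulated data. Copies were counted as 50-base words shared with other transcripts of GENCODE M21. Analyses used R 4.3.3 and Python 3.11.15. A result that the naming rule selected is not reported here.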

Additional observations from a re-analysis of the deposited data

Results flagged for a closer look

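In 9 of 158 sets of 4 or 5 livers, 1 liver lay far from the others of its set, with a gap to its nearest neighbour, as a share of the whole range of the set, above Dixon's critical value. Chance alone gives this in about 1 in 20 sets. Among the 4 double mutants, HP1ab_KO stood apart for Cbx1 (share 0.843), the gene that its label names as deleted. The first HP1ag_KO liver stood apart for the level of the carboxylesterase list (0.870), and the second HP1ag_KO liver for that of the hepatocyte markers (0.867). Among the 5 other livers, the second HP1a_KO liver was apart for Zfp445 (0.869), the second WT liver for Amd1 (0.831) and the third WT liver for Lrit1 (0.848). For the levels of lists, the third WT liver was apart for circadian clock genes (0.868), the first WT liver for imprinted genes (0.725) and the second WT liver for adipocyte markers (0.746).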

How the results depend on the processing

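The comparison of double mutants with the other 5 livers had 1 limma call. It had 0 with a mean of at least 50 as filter, with 4 groups weighted by libraries or weighted equally, and with runs of neighbouring animal numbers as a term, 2 with libraries scaled to equal totals (Zfp445 added), and 68 with DESeq2. Leaving out 1 liver gave 0 to 1 call. Over these alternatives the adjusted p of RP24-194K24.6 ran from 0.00834 to 0.504 by limma. Against WT the 2 calls became 1 with no filter, 0 with a mean of at least 50, equal totals, 4 groups or edgeR, and 64 with DESeq2, and 0 to 2 without 1 liver. Against HP1a_KO the count was 0 and became 73 with DESeq2, and 0 to 3 without 1 liver. The term for animal numbers was not run for these 2 comparisons. In the main comparison that term left the difference to WT livers 2 and 3 and the 3 HP1ag_KO livers, the only ones in runs that hold both sides. The number of genes without overlap, 346, ran from 450 to 1062 without 1 liver, since fewer livers then have to separate. The median of the zinc finger list was 0.23 with equal totals and 0.13 with the term for animal numbers. The count of zinc finger genes wholly above ran from 25 to 43 without 1 liver, where the share of all genes wholly above rose as well. The cause of the other changes was not tested. All 39 genes that the naming rule took for the main comparison kept their direction under every alternative run. Apart from the Cbx genes they were chosen for showing no overlap. Leaving out a liver or changing the pseudocount could therefore not reverse them, and the kept direction is no support for them. No paired analysis was possible because the labels give no replicate numbers. Precision is limited by the single HP1ab_KO liver, by the 2 HP1a_KO livers and, for copies of one sequence, by how reads were assigned.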

Other observations

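Some genes were high in only part of the double mutants. They were chosen after their values were seen. Meg3, an imprinted noncoding RNA, stood at 21.3, 19.05 and 16.9 in the WT livers, 20.2 and 14.6 in HP1a_KO, 19.98 in HP1ab_KO and 30.1, 132 and 121 in HP1ag_KO. HP1ag_KO livers 2 and 3 were above the other 7. Gm13456, a gene model that shares 57.4% of its 50-base words with other genes, chiefly the elongation factor gene Eef1a1 and its copies, stood at 8.89, 18.1 and 18.7 in the WT livers, 18.3 and 24.9 in HP1a_KO, 15.98 in HP1ab_KO and 16.4, 1057 and 749 in HP1ag_KO. Again the same 2 livers were above the other 7, and HP1ag_KO liver 1 was not. Rpp40 and Dpy19l3, which separate all 4 double mutants from the rest, were also highest in these 2 livers.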
